A study of Gallus gallus with 6 samples.

Results

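Histone genes that lie together on chicken chromosome 1 were compared between the uterus of layers and non-layers. The 8 genes are HIST1H110 (linker histone H1), H2AFJ and H2A-VI (H2A), H2B-VIII and HIST1H2B7L2 (H2B), and HIST1H4D, HIST1H4I and HIST4H4 (H4). They were chosen by name from the authors' deposited table of 616 differentially expressed genes (DEGs), and they are 8 of 19152 genes in the count table. All 8 were among the 13317 genes tested after removal of low counts, and no library held fewer than 26.6 counts of any of them. The DEG table holds genes selected on the difference between these same 6 libraries. The direction and the size of the difference in the 8 genes are therefore given as a description, with no test of their own.

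The RNA came from the uterus of 6 Hy-line hens, 3 layers and 3 non-layers, each sequenced as its own library. The layers were 35 weeks old and were sampled during shell calcification, with the egg in the uterus. The non-layers were 35 to 60 weeks old and had an ovary without growing follicles. The age of each non-layer was not used here, so that age and laying status cannot be told apart.

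Histones H2A, H2B, H3 and H4 form the protein core of the nucleosome, around which DNA is wound, and the linker histone H1 binds where the DNA enters and leaves that core. Most vertebrate histone genes lie in clusters, lack introns and are transcribed in S phase, when the newly copied DNA has to be packaged. Their mRNAs usually end in a stem-loop, which is bound by the stem-loop binding protein SLBP, and not in a poly-A tail. Some histone genes also give polyadenylated mRNA, as is known in mammals for cells that have stopped dividing. Poly-A RNA was enriched before the libraries were made, a step that selects for tailed transcripts. The share of the counted histone mRNA that had a tail was not measured.

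Gene counts summed to between 14756666 and 20333103 per library. Levels are given as CPM, that is, counts scaled to a common library size with TMM factors, which ranged from 0.859 to 1.18 and were below 1 in the layers and above 1 in the non-layers. Of the genes listed for the shell gland, MEPE, a matrix protein of the eggshell, was at 46500 to 52800 CPM against 12.4 to 37.8 CPM in the non-layers. Of 49 marker genes of 6 tissues and cell types, 7 had a name in the files, because only genes of the DEG table are named there. Of these 7, the shell gland genes MEPE and SPP1 and LYZ, listed as an egg white gene of the magnum, were called higher in layers, and OCX36, SLC4A9, HBBA and CD3D were not called. SLC4A9, also listed for the shell gland, went the other way from MEPE, at 1.11 to 1.60 CPM in the layers against 3.23 to 9.51 CPM in the non-layers. In bulk tissue, fewer cells of a type and less RNA per cell cannot be told apart.

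The 8 genes spanned 95.1 kb of chromosome 1 (Galgal 5.0). From the first to the last, HIST1H4D lay at 48099163 to 48099621 on the + strand, H2B-VIII at 48111297 to 48111790 (+), H2AFJ at 48125079 to 48125942 (-) and HIST1H110 at 48127672 to 48128582 (-). They were followed by HIST1H4I at 48146441 to 48147882 (-), HIST4H4 at 48160103 to 48160539 (+), HIST1H2B7L2 at 48178033 to 48179113 (+) and H2A-VI at 48193601 to 48194213 (-). Both H2A genes and the H1 gene lay on the - strand, both H2B genes on the + strand, and the H4 genes on either. None of the 8 overlapped another of them. For all 8 genes the exon length, 437 bases for HIST4H4 to 1442 bases for HIST1H4I, equalled the distance from start to end, so that none had an annotated intron. The gaps between neighbours ranged from 1729 bases, between H2AFJ and HIST1H110 (both on the - strand), to 17858 bases, between HIST1H110 and HIST1H4I.

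All 8 histone genes were higher in every layer than in every non-layer, by a mean of 2.3-fold for HIST1H2B7L2 to 4.46-fold for HIST4H4. For comparison, 12.1% of all genes tested were higher in every layer than in every non-layer. Nothing follows from the full count of 8, since the genes were selected on this contrast. The counts of the 8 genes together made up 0.0107% to 0.024% of the gene counts of a layer and 0.00505% to 0.00821% of those of a non-layer.

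The linker histone gene HIST1H110 had 26.0, 34.4 and 94.0 CPM in layers 1, 2 and 3 and 14.1, 20.9 and 8.86 CPM in non-layers 1, 2 and 3. The groups did not overlap, but layer 1 was only 1.24 times the highest non-layer, whereas layer 3 was 3.11 times the mean of layers 1 and 2. The mean was 51.5 ± 37.1 CPM (SD, n = 3) in the layers and 14.6 ± 6.06 CPM (SD, n = 3) in non-layers. The fitted log2 difference in CPM was 1.81 (SE 0.54), the one with the largest SE of the 8, and it was 1.05 without layer 3.

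Of the H2A genes, H2AFJ had 18.3, 17.8 and 43.0 CPM in the layers and 8.84, 12.4 and 6.10 CPM in the non-layers. In mammals the gene of this name encodes a variant H2A. Layers 1 and 2 were nearly level and layer 3 was 2.38 times their mean. The log2 difference of 1.53 (SE 0.43) became 0.99 without layer 3, just under 2-fold. H2A-VI had 7.41, 8.27 and 15.6 CPM in the layers and 2.62, 3.45 and 2.50 CPM in the non-layers. Here every layer was at least 2.15 times every non-layer, and the log2 difference was 1.87 (SE 0.37), or 1.46 without layer 3.

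Of the H2B genes, whose products pair with H2A, H2B-VIII had 22.2, 21.1 and 36.5 CPM in the layers and 11.5, 13.9 and 6.93 CPM in the non-layers. HIST1H2B7L2 had 17.2, 16.0 and 27.5 CPM in the layers and 10.4, 8.58 and 7.46 CPM in the non-layers. These were the smallest differences of the 8, with a log2 difference of 1.30 (SE 0.34) for H2B-VIII and 1.20 (SE 0.28) for HIST1H2B7L2. Without layer 3 they were 1.01 and 0.92, so that HIST1H2B7L2, like H2AFJ, no longer reached 2-fold.

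The H4 genes, whose products pair with H3 in the core, held the largest difference of the 8. HIST4H4 had 7.23, 5.08 and 12.4 CPM in the layers and 1.65, 2.02 and 1.88 CPM in the non-layers. It varied least of the 8 genes in the non-layers, and its lowest layer was 2.51 times its highest non-layer. Its log2 difference was 2.15 (SE 0.39), and 1.74 without layer 3.

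HIST1H4D had 12.6, 8.34 and 17.4 CPM in the layers and 6.10, 2.96 and 4.17 CPM in the non-layers, a log2 difference of 1.54 (SE 0.38) that was 1.26 without layer 3. HIST1H4I had 21.3, 13.2 and 27.9 CPM in the layers and 7.50, 11.4 and 5.06 CPM in the non-layers, a log2 difference of 1.38 (SE 0.39) that was 1.11 without layer 3. Its groups came closest to each other of all 8 genes, with layer 2 at 1.16 times non-layer 2.

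**Figure D1:**
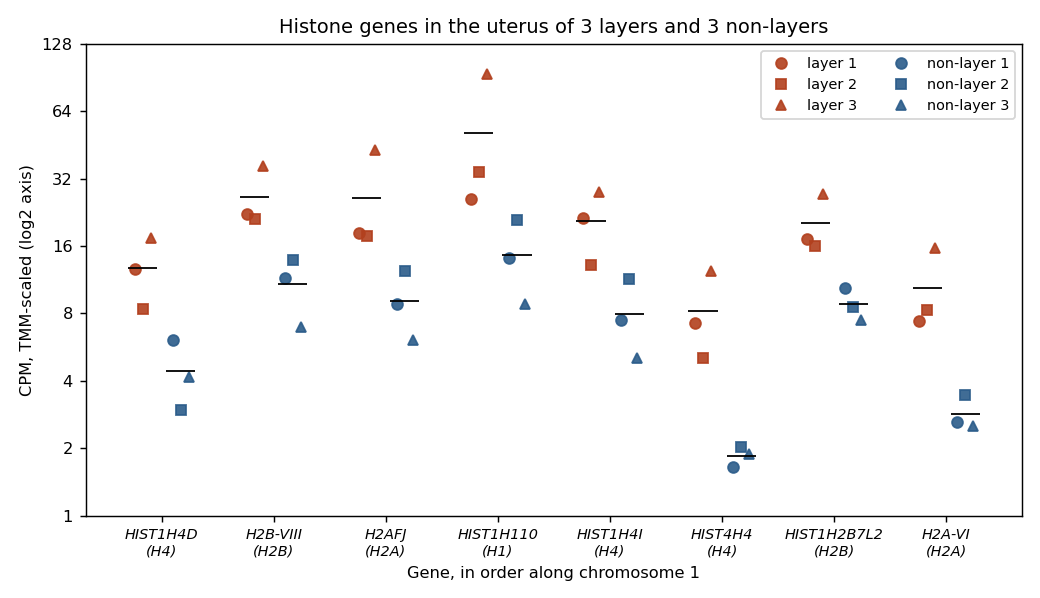
CPM of the 8 histone genes in each library, on a log2 axis, with genes in their order along chromosome 1. Symbols are single libraries and black lines are group means (n = 3). Layer 3 is the highest point for every gene, and the closest groups are those of HIST1H4I, at 13.2 and 11.4 CPM.

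The fit across all genes, with edgeR's quasi-likelihood test and Benjamini-Hochberg adjustment, called HIST4H4 alone of the 8 (adjusted p under 0.05 and at least 2-fold), beside 0.901% of all genes tested that were called higher in layers. All 8 were at least 2-fold higher by this fit, as were 5.36% of all genes tested, and all 8 had an unadjusted p under 0.05 with the layers higher, as did 9.74% of all genes tested. With DESeq2, the test by which the authors made the DEG table, all 8 were called, beside 3.2% of genes with an adjusted p. The median log2 difference of the 8 genes was 1.54 and that of all genes tested was 0.01. These counts restate the choice of the genes, and nothing is read from them. The call of HIST4H4 by edgeR (adjusted p 0.047) was kept without layer 3 (adjusted p 0.05 after rounding). It was lost without layer 1 (0.093), layer 2 (0.099), non-layer 1 (0.22), non-layer 2 (0.16) or non-layer 3 (0.088), while its log2 difference stayed between 1.74 and 2.40.

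Leaving out layer 3 gave the smallest difference for each of the 8 genes. Layer 3 was the highest layer for 8 of 8 genes, beside 39.3% of all genes tested, and the highest of the 6 libraries for 8 of 8, beside 24.9%. Of the non-layers, non-layer 2 was the highest for 6 of the 8 genes and non-layer 3 the lowest for 6. The exceptions were HIST1H4D, lowest in non-layer 2 and highest in non-layer 1, HIST4H4, lowest in non-layer 1, and HIST1H2B7L2, highest in non-layer 1. HBBA, a beta-type globin of red blood cells, was also highest in layer 3, at 386 CPM against 58.3 and 82.2 CPM in the other two layers and 44.1 to 54.3 CPM in the non-layers. It is the only gene with a name of 14 listed for red blood cells, and its part in the high histone values of layer 3 was not tested. Without layer 3 the 8 genes together were 2.12-fold higher in layers, as against 2.93-fold with it.

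**Figure D2:**
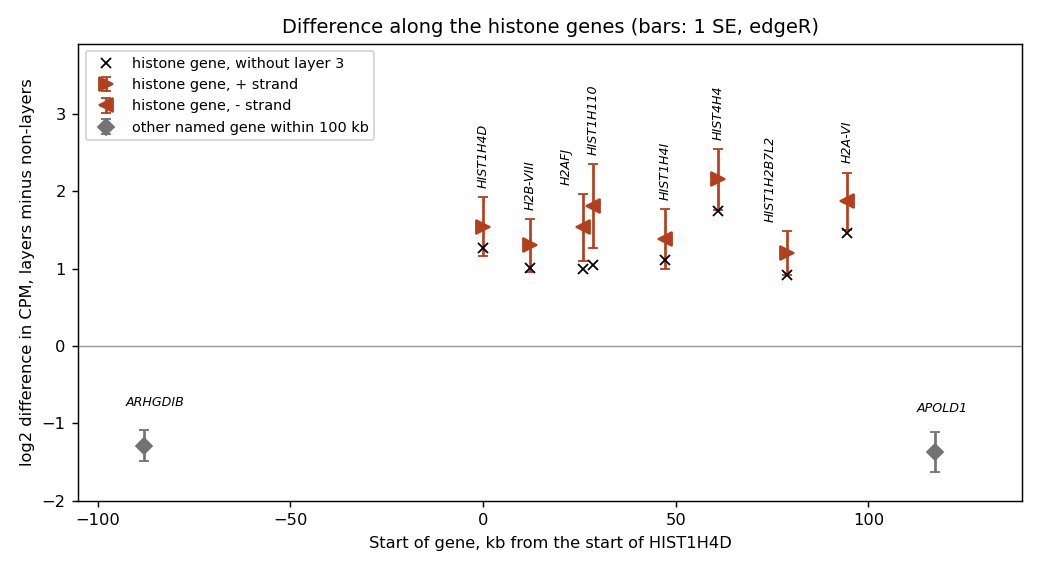
Log2 difference in CPM (layers minus non-layers, edgeR) of each histone gene against its distance in kb from the start of HIST1H4D, with triangles pointing along the strand and bars of 1 SE. Crosses give the value without layer 3, between 0.92 and 1.74, and diamonds are the 2 other genes of the DEG table within 100 kb, both below 0.

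In the layers all 8 genes varied more between hens than the median gene of like level. In the non-layers 5 of the 8 did. Layer 3 was the highest layer for all 8, so their SDs in layers are not independent of each other. On the scale of log2(CPM + 0.5), the SD between the 3 layers was 0.414 to 0.965 for the 8 genes, with a median of 0.544, whereas 4243 other genes within the same range of mean levels had a median SD of 0.346 and quartiles of 0.205 and 0.565. HIST1H110 was the most variable of the 8 in both groups, with an SD of 0.965 in layers and 0.598 in non-layers. In the non-layers the SDs of the 8 genes ranged from 0.117, for HIST4H4, to that of HIST1H110, with a median of 0.474, and the other genes had a median of 0.236 and quartiles of 0.135 and 0.405. The least variable genes of the non-layers were HIST4H4, H2A-VI (0.214) and HIST1H2B7L2 (0.226), the last 3 of the 8 along the chromosome.

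Levels between genes were compared by RPKM, which takes exon length into account. In the layers the order of mean RPKM was HIST1H110 (49.8), H2B-VIII (47.8), H2AFJ (27.0), HIST1H4D (24.8), HIST4H4 (16.8), HIST1H2B7L2 (16.6), H2A-VI (15.1) and HIST1H4I (12.9). In the non-layers it was H2B-VIII (24.3), HIST1H110 (17.9), H2AFJ (11.7), HIST1H4D (10.8), HIST1H2B7L2 (9.12), HIST1H4I (6.18), H2A-VI (5.23) and HIST4H4 (4.75). In both groups the ranges of all neighbours in the order overlapped. These ranges do not take into account that all genes were measured in the same libraries. Within each of the 6 libraries H2B-VIII was above H2AFJ, at 41.9, 36.8 and 64.7 RPKM against 19.7, 17.7 and 43.5 RPKM in layers 1, 2 and 3. HIST1H110 was above H2B-VIII in layer 3 only. The highest mean was 3.87 times the lowest in layers and 5.12 times in non-layers. H2B-VIII and HIST1H110, the upper genes of both orders, did not share a library range with HIST1H4I in either group: H2B-VIII ranged from 36.8 to 64.7 RPKM in layers and from 16.5 to 30.5 RPKM in non-layers, and HIST1H110 from 26.7 to 90.3 RPKM and from 11.5 to 24.97 RPKM. The corresponding values of HIST1H4I were 7.86 to 16.9 RPKM in layers and 4.14 to 8.60 RPKM in non-layers.

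The make-up of the histone counts differed less between libraries than their amount. H2AFJ kept between 13.8% and 16.3% of the counts of the 8 genes in all 6 libraries, and H2B-VIII between 13.3% and 18.4%. HIST1H110 took 19.7% in layer 1 and 34.3% in layer 3, the widest span of the 8 in percentage points, and 20.7% to 27.7% in the non-layers. Relative to its own share HIST1H4D varied most, with 3.9% in non-layer 2 and 9.72% in non-layer 1. HIST4H4 took 4.06% to 5.49% in layers and 2.59% to 4.42% in non-layers. For all 8 genes the shares in layers and non-layers overlapped. Summed by class, the layers had 3.52 times the non-layers' CPM for H1 (1 gene), 3.08 times for H2A (2 genes), 2.39 times for H2B (2 genes) and 2.93 times for H4 (3 genes). Using layers 1 and 2 alone, the classes lay closer together, at 2.07, 2.16, 1.95 and 2.38 times.

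**Figure D3:**
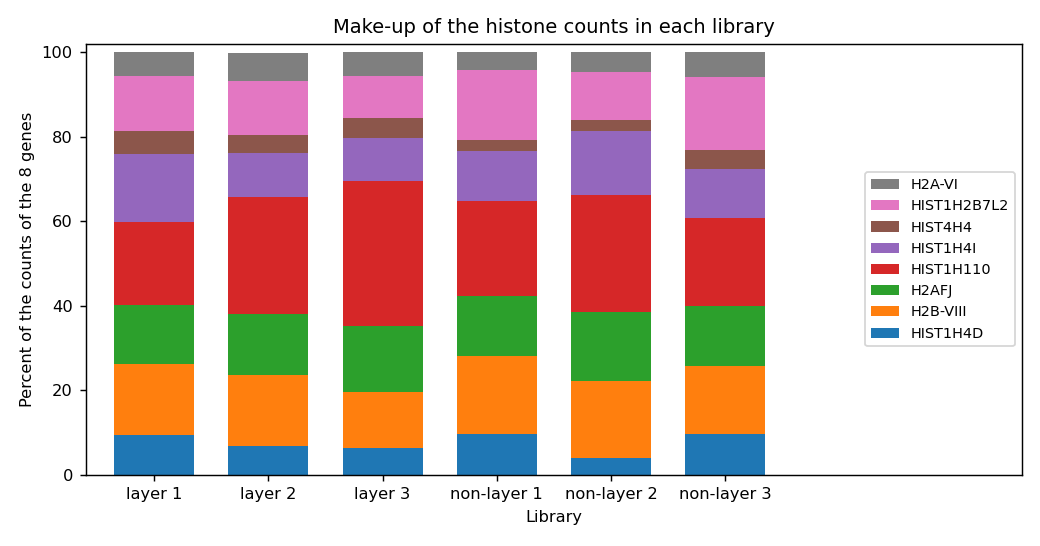
Share of the counts of the 8 histone genes that each gene took, as stacked bars in percent for the 6 libraries. The segment of HIST1H110 is widest in layer 3 (34.3%) and narrowest in layer 1 (19.7%), and that of H2AFJ stays between 13.8% and 16.3%.

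The 8 named genes are part of a longer run. The count table lists genes in order of position, since all 584 neighbouring pairs of DEG-table genes on the same chromosome were in coordinate order in it. From HIST1H4D to H2A-VI it lists 42 genes, 34 of them without a name in the files, and which of them are histone genes is not known from these files. As far as counts and RPKM give their exon lengths (30 genes), these were 312 to 1317 bases with a median of 423.5, and 22 were under 600 bases. Of the 34, 9 had at most 3 counts in every library. In the RefSeq annotation of a later assembly (GRCg7b), 5 of the 8 names were found, by symbol or synonym, in the same order (HIST1H4D, H2B-VIII, H2AFJ, HIST1H110 and HIST1H4I). Of the 16 genes from HIST1H4D to HIST1H4I there, 15 had a histone symbol or synonym, and 4 of these named H3, the class that the 8 genes lack.

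Of the 34 genes between the named ones, 12 were tested and 22 had too few counts. Some of the 22 had a lower mean in layers, such as ENSGALG00000029941 (0.0947 CPM against 1.24 CPM in the non-layers), and others a higher one. The log2 differences of the 12 were all above 0, from 0.42 to 1.64 with a median of 1.19, whereas 6738 of the 13317 genes tested had one above 0. At least 2-fold higher in layers were 8 of the 12, beside 5.36% of all genes tested, and 4 were higher in every layer than in every non-layer, beside 12.1%. By edgeR 0 of the 12 were called (0.901% of all genes tested were called higher), 5 had an unadjusted p under 0.05 (9.74%), and 1 was called by DESeq2 (3.2%). These 12 are absent from the DEG table, and whether they share reads with the 8 named genes was not tested. Layer 3 was the highest layer for 11 of the 12. The gene with the most counts, ENSGALG00000031874, had 808.1, 482.9 and 1202 counts in layers 1, 2 and 3 and 488.9, 539.3 and 595.7 counts in non-layers 1, 2 and 3, with a mean of 49.7 CPM against 29.2 CPM (log2 difference 0.77, SE 0.26). ENSGALG00000035445 had a mean of 45.1 CPM against 20.4 CPM (log2 difference 1.15, SE 0.42).

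The sum over all 42 genes does not depend on how counts were divided among them. It can still depend on counts divided with genes outside the run, which was not tested. As given below, 1 gene of the run had the same fractional counts as a gene outside it in 5 of 6 libraries. In layer 3 the gene of the run had 605.6 counts and the other 254.4. The sum was itself fractional, at 4520.35 counts in layer 1 and 9609.14 counts in layer 3. It was 268.0, 271.7 and 540.0 CPM in layers 1, 2 and 3 and 152.5, 183.5 and 113.3 CPM in non-layers 1, 2 and 3, so that every layer was above every non-layer. For comparison, 12.1% of all genes tested were higher in every layer than in every non-layer. The sum includes the 8 genes selected on this contrast, with 2230.29 of its 4520.35 counts in layer 1. Nothing therefore follows from its direction. The layers had 2.4 times the mean of the non-layers, or 1.8 times using layers 1 and 2 alone. The 34 genes without a name had 2.05 times, and the 8 named genes 2.93 times.

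**Figure D4:**
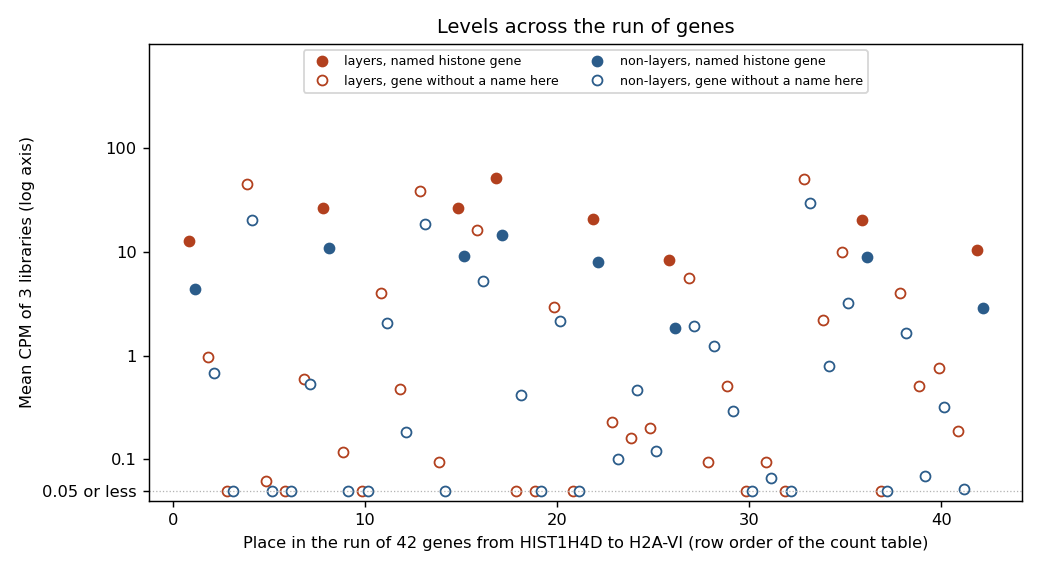
Mean CPM in layers and non-layers (n = 3 each, log axis) of the 42 genes from HIST1H4D to H2A-VI, in the row order of the count table. Filled symbols are the 8 named histone genes and open symbols the 34 genes without a name in the files. Values at or under 0.05 CPM are drawn at 0.05, and the filled layer symbols all lie above the filled non-layer symbols beside them.

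The nearest other genes of the DEG table lay on either side of the run and went the other way. ARHGDIB, a gene best known from blood cells, ended 79648 bases before HIST1H4D and had 30.3, 26.7 and 25.5 CPM in the layers and 64.0, 53.9 and 84.1 CPM in the non-layers (log2 difference -1.29, SE 0.20). APOLD1, a gene best known from vascular endothelium, started 22197 bases after H2A-VI and had 11.7, 14.0 and 15.2 CPM in the layers and 41.5, 39.9 and 24.2 CPM in the non-layers (log2 difference -1.37, SE 0.26). No named gene of the DEG table other than the 8 histone genes lay between them. Both flanking genes were also selected on this contrast.

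The counts of the 8 genes were fractional in every library. Within a tolerance of 0.01, 0 of their 48 values were whole numbers, whereas 92.7% of the values of the genes outside the run were whole. Of all genes, 10.3% had a fractional count in any library. Among the 34 genes between the named ones, 46.1% of values were whole, most of them zeros, and 27 genes had a fraction in at least 1 library. The smallest values above 0 in the run were far below 1 read. How the fractions came about is not given in the sources used here, and whether reads were shared between genes was not tested. The counts of single genes in the run are therefore not plain numbers of reads. The authors' table marks HIST1H4D, HIST1H4I and H2A-VI as confounded, 3 of the 8 (37.5%), beside 114 of its 616 genes (18.5%), and the meaning of the mark is not given in the sources used here. The 5 unmarked histone genes had fractional counts too.

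HIST1H4D showed the coarsest values. In 4 of the 6 libraries its count was a whole multiple, within 0.001, of 19.96 counts, which is its exon length of 459 bases divided by 23. These were 6 steps in layer 2, 5 in non-layer 1, 3 in non-layer 2 and 4 in non-layer 3. Its non-layers differed from each other by 1 or 2 such steps. For the other 7 histone genes no step of this kind was met by more than 2 libraries. Another gene of the run, without a name, had the same fractional counts as an unnamed gene outside the run in 5 of 6 libraries, within 0.001, and differed from it in layer 3 (605.6 against 254.4 counts), the library in which the histone genes were highest.

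The named genes that supply or accompany histones in dividing cells lay lower in layers. Of 17 genes listed for processing of histone mRNA ends and transcription of histone genes, 2 had a name. Both were called lower by edgeR, beside 0.969% of all genes tested. Only genes of the DEG table have a name here, so the named list genes were selected on this contrast. Nothing is read from their calls or their direction. SLBP, whose product binds the stem-loop of histone mRNA, had 1.54, 1.18 and 1.80 CPM in the layers and 14.9, 15.0 and 5.01 CPM in the non-layers (log2 difference -2.94, SE 0.48). Every layer was below every non-layer, the reverse of the 8 histone genes. CDKN2A, known as a cell cycle inhibitor and not as a factor of histone mRNA ends, had 0.415, 0.209 and 0.337 CPM in the layers and 2.74, 3.55 and 1.88 CPM in the non-layers (log2 difference -3.05, SE 0.46). Of 22 histone chaperones only HJURP had a name. It loads the centromere histone CENPA, and was called lower, at 0.337 to 1.04 CPM against 4.28 to 14.8 CPM (log2 difference -3.69, SE 0.61). None of 14 polyadenylation genes had a name.

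CENPA itself, on chromosome 16, was the only other histone gene with a name. It had 0, 0 and 2 counts in layers 1, 2 and 3 and 27, 22 and 9 counts in non-layers 1, 2 and 3, too few to be tested by edgeR. With 1.07 ± 0.589 CPM (SD, n = 3) in non-layers it ran opposite to the 8 genes of chromosome 1.

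Of 40 genes listed for S phase and DNA replication, 20 had a name. All 20 had log2 differences below 0, as did 6579 of the 13317 genes tested. They ranged from -1.35 to -5.98 with a median of -1.95. In 19 of the 20 every layer was below every non-layer, as in 15.1% of all genes tested. By edgeR 7 of the 20 were called lower, beside 0.969% of all genes tested. These 7 were MCM2, MCM3, MCM5, CDT1, RRM2, TK1 and TOP2A. RRM2, a subunit of the enzyme that makes deoxyribonucleotides, had 1.07, 0.973 and 0.393 CPM in the layers and 74.0, 65.3 and 13.9 CPM in the non-layers. TOP2A, a topoisomerase of dividing cells, had 10.2, 11.1 and 9.27 CPM against 158, 201 and 38.8 CPM. MCM2, part of the replicative helicase, had 11.8, 11.6 and 9.50 CPM against 85.4, 67.2 and 33.9 CPM. The list genes with a name were selected on this contrast, as the histone genes were, so neither direction is independent evidence.

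The other called genes showed the same layout of groups. The helicase subunits MCM3 and MCM5 had log2 differences of -2.64 and -1.95, CDT1, which licenses replication origins, -1.76, and thymidine kinase TK1 -3.92. Not called were the helicase subunits MCM4 (log2 difference -1.70), MCM6 (-1.64) and MCM10, a replication initiation factor (-2.70). These calls depended on the libraries. Of the genes of all 4 lists, 10 were called by edgeR with all libraries, 0 without layer 1, layer 2, non-layer 1 or non-layer 2, 1 without layer 3 and 21 without non-layer 3.

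Side by side, most histone genes and all named list genes had the same lowest library among the non-layers, whereas the layers did not rank alike for them. Among the non-layers, the lowest value came from non-layer 3 in all 23 named list genes, beside 41.9% of all genes tested, and in 6 of the 8 histone genes. Among the layers, layer 3 was the highest for 8 of 8 histone genes and for 7 of the 23 list genes (30.4%), beside 39.3% of all genes tested. It was the lowest layer for 11 of the list genes (47.8%), beside 37.7% of all genes tested.

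**Figure D5:**
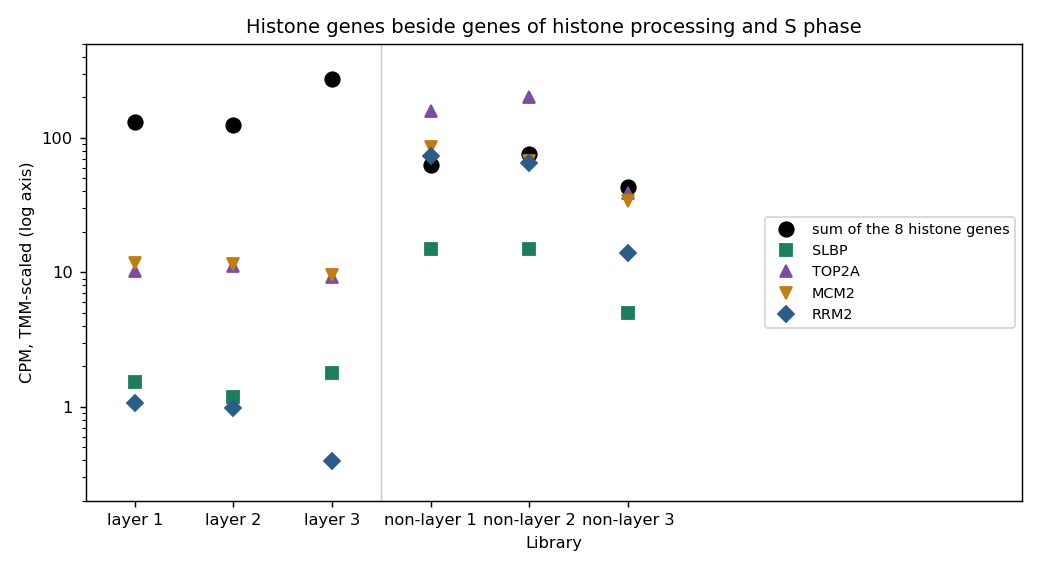
CPM on a log axis of the sum of the 8 histone genes and of SLBP, TOP2A, MCM2 and RRM2 in each library. The histone sum is 124.2 to 274.3 CPM in layers, above its 43.0 to 75.6 CPM in non-layers, whereas each of the other genes lies lower in every layer than in every non-layer.

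Leaving out the 8 histone genes themselves, the 5 genes whose pattern over the 6 libraries was most like their mean lay outside the run. Likeness was taken as the root mean square (RMS) difference of centred log2(CPM + 0.5) values over the 6 libraries, among 10698 tested genes with a mean of at least 5 CPM. The closest was WIPI1, a protein of autophagosome formation, with an RMS difference of 0.0538 and 157, 144 and 281 CPM in the layers and 77.1, 81.4 and 57.5 CPM in the non-layers. CGN, the tight junction protein cingulin, was at 0.181. Another 2 of the 5 closest genes, at 0.176 and 0.185, have no name in the files. The 8 histone genes themselves differed from their own mean by 0.158 to 0.374, so that WIPI1 lay closer to that mean than any of them. WIPI1 was picked as the closest of 10698 genes by this measure and the 8 genes were not, so nothing is read from this.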

How the data were processed

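Poly-A RNA from the uterus of 3 layers and 3 non-layers was sequenced as single-end reads from a stranded kit. The authors trimmed reads with Prinseq, used Array Studio for alignment to Galgal 5.0, and deposited raw estimated counts for Ensembl genes. The gene counter, its strand setting and the annotation release are not given in the sources used here. The deposited RPKM values are those counts divided by exon length and by the library's sum of gene counts. The authors' DEG table was used for names, coordinates, strand, exon length and the confounded mark, and its fold changes, p-values, q-values and group means were not used.

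The 8 genes and the gene lists were chosen with earlier results of these data known. Samples were grouped by the laying status in their labels. Estimated counts were rounded and tested with edgeR 4.0.16 (R 4.3.3) with TMM scaling, filterByExpr and the quasi-likelihood F-test over all 6 libraries without covariates. A gene was called at an adjusted p under 0.05 and at least 2-fold. Standard errors are the log2 difference divided by the square root of F. DESeq2 1.42.0 and limma 3.58.1 on log2(RPKM + 1) or log2(RPKM + 0.1), with and without a minimum of 1 RPKM in 3 libraries, other scalings and filters, counts left unrounded, a replicate block and each library left out were alternatives. On data simulated for this comparison over 13317 genes, edgeR called 12 of 62 genes changed 2-fold, 59 of 69 changed 4-fold and 65 of 69 changed 8-fold, with 5 calls among 12992 unchanged genes. Chi-square per gene between replicates was 13.4 to 155.1, far above sampling noise, so no library counted as a duplicate. The smallest two-sided p of an exact permutation test of 3 against 3 libraries is 0.1.

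Named were the 8 genes, other named histone genes, list genes called and up to 3 not called, in list order, the 5 genes most alike in pattern (of which 1 is not reported here), and DEG-table genes within 100 kb. ENSGALG00000031874, ENSGALG00000035445, ENSGALG00000029941 and the genes with equal counts were chosen after their values were seen. No promoter, protein or genome sequence was used here. Python 3.11.15, numpy 2.4.6 and pandas 2.3.3 were used for other steps.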

Additional observations from a re-analysis of the deposited data

How the results depend on the processing

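In all 16 alternatives the 8 histone genes stayed higher in layers, and their median log2 difference moved by less than the spread between replicates. Single genes moved by more than their own spread with limma at a pseudocount of 1, with or without the filter. There the log2 difference of HIST1H2B7L2 went from 1.20 to 0.77 and that of H2A-VI from 1.87 to 1.31. That of HIST4H4 went from 2.15 to 1.54 there, and that of HIST1H110 from 1.81 to 1.05 without layer 3. The shifts of HIST4H4 and HIST1H110 were larger but stayed within the wider spread of these genes between layers. Calls were far less stable. Genes called, 249 in the main analysis, were 935 with DESeq2, 781 with library size only, 626 and 664 with limma on RPKM and a pseudocount of 1 or 0.1, 434 with limma and no filter, and 0 to 274 with 1 library left out. Histone genes called were 8 with DESeq2, 2 with library size only, 2 with a filter of at least 1 count in any library, 2 and 2 with limma at either pseudocount, 0 with limma and no filter, and 0 to 1 with 1 library left out, against 1. CENPA was called (1 gene against 0) with DESeq2 and with each limma setting (1, 1 and 1). Of the genes in the lists, 10 were called, against 23 with DESeq2, 23 with library size only, 19 and 18 with limma at a pseudocount of 1 or 0.1, and 0 to 21 with 1 library left out.

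Samples with the same replicate number did not deviate together (correlations of -0.147, 0.11 and -0.066), so the numbers were not taken as pairs. With the replicate block, 21 genes, 0 of the histone genes and 2 of the list genes were called. Scaling by library size only shifted the median of all genes from 0.01 to -0.33 and the histone genes to between 0.86 and 1.81, and 13.2% of calls were then higher in layers, as against 48.2%. With limma the share was 13.9%, 11.6% and 12.9%. Neither library size only nor limma on RPKM used the TMM factors, which were below 1 in the layers and above 1 in the non-layers. The causes of these shifts were not tested. Promoter windows were not analysed here. The low counts of HIST4H4 (26.6 to 40.9 in non-layers) limit its precision. HIST1H4D stood at 3 to 5 steps of 19.96 counts in the non-layers, and its SE does not take these steps into account. What the fractional counts do to single genes was not tested.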
